A study of Mus musculus with 2 samples.

Results

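Pyroptosis is a lytic form of cell death, and the genes described here are 9 gasdermin, caspase and inflammasome genes, taken by symbol from the 31053 genes of the count matrices: Gsdmd, Gsdme, Casp1, Casp8, Pycard, Aim2, Nek7, Txnip and Hmgb1. They were measured by single-cell RNA sequencing of Lin- c-Kit+ GFP+ splenocytes from mice bearing AE9a leukemia, a model of acute myeloid leukemia (AML) driven by the AML1-ETO9a fusion. The leukemia arose from fetal liver cells of Usp18+/f UBCER-Cre mice transduced with a retrovirus carrying AE9a and GFP, so the starting cells of both groups carried 1 floxed Usp18 allele and a tamoxifen-inducible Cre driven by the ubiquitin C promoter. Recipients that had become sick received oil (Usp18+/f) or tamoxifen (Usp18+/Δ, heterozygous deletion), with sorting 3 days from the start of injections. Each group pooled 3 mice into 1 library, for which 8000 cells were targeted, so no test between groups is possible and every interval below covers counting error only. Tamoxifen and the deletion differ together between the groups and cannot be told apart.

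In the canonical pathway a sensor such as Aim2, which binds cytosolic DNA, or Nlrp3 assembles with the adaptor ASC, the product of Pycard, and activates caspase-1, which cleaves gasdermin D (Gsdmd) into a fragment that forms membrane pores. Caspase-8 can cleave gasdermin D as well, gasdermin E (Gsdme) forms pores of the same kind, Nek7 is a kinase needed for Nlrp3 assembly, the thioredoxin-interacting protein Txnip has been linked to Nlrp3, and Hmgb1 is an abundant nuclear protein that acts as an alarmin once released. These proteins act mainly through cleavage and assembly, which mRNA counts do not show.

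The matrices held 7281 (Usp18+/f) and 7833 (Usp18+/Δ) barcodes, of which 6886 and 7406 cells were kept, with 62646142 and 63844280 unique molecular identifiers (UMIs) and medians of 8670 and 8147.5 UMIs per cell. The 2 libraries shared 15 barcodes. Kit, the surface marker of the sort, stood at 96.8 and 103 UMIs per 1000000 (CPM), while Ptprc, which encodes the blood cell antigen CD45, had 9 and 14 UMIs. Usp18 itself was at 5.65 CPM in the Usp18+/f-labelled library and 23.8 CPM in the Usp18+/Δ-labelled library, 4.21-fold higher and so against the label. Usp18 is an interferon-stimulated gene (ISG), and these 3′ counts do not separate its alleles. Isg15, a classical ISG, was at 20.9 and 113 CPM. Macrophage markers summed to 2.0 and 5.58 CPM, and 1316 of the 1342 neutrophil marker UMIs in the Usp18+/Δ-labelled library lay in 1 cell. Cells with high Hspa1a and Hspa1b, which encode heat shock proteins, made up 7.08% and 0.468% of cells of at least 3000 UMIs, and the part of this difference in the values below was not tested.

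The promoters of Txnip and Casp8, the 2 genes past the fold used for interferon-high cells, are shown from RefSeq (GRCm38.p6), 250 bases before to 50 bases after the start. Entries were found for 8 of the 9 genes. Capitals mark, in Txnip, a match to the carbohydrate response element (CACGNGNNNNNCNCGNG) and, in Casp8, matches to the interferon regulatory factor core (AANNGAAA), both searched on both strands.
Txnip, chr3:96557707-96558006, plus strand: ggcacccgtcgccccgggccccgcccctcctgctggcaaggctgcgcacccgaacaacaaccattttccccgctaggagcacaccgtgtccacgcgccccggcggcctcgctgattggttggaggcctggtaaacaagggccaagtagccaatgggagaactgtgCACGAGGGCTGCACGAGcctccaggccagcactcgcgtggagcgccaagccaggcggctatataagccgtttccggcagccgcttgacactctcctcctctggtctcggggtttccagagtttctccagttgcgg
Casp8, chr1:58802252-58802551, plus strand: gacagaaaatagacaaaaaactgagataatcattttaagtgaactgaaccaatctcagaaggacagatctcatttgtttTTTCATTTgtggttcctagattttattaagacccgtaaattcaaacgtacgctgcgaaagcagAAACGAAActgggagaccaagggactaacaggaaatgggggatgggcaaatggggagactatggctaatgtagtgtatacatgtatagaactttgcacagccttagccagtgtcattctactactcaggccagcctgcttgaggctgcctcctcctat

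The carbohydrate response element is the motif through which glucose-sensing factors act on Txnip, and its letters were found at -85 from the Txnip start. The same letters occur in 0.365% of 32851 promoters of the same length, and among the 8 genes also in 1 of the 2 promoters listed for Hmgb1. The interferon regulatory factor core occurs in 23.9% of promoters and was found for 2 of the 8 genes, Casp8 and Pycard. A longer interferon-stimulated response element (GAAANNGAAA), which contains the shorter core, occurs in 3.44% of promoters and was found for 0 of the 8 genes. These are matches of letters in one window and not binding sites.

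All 9 genes had UMIs in both libraries, at levels from 1055 and 929 CPM for Hmgb1 to 0.192 and 0.407 CPM for Casp1. Each UMI stands for 1 transcript end, so levels of different genes can be set side by side without division by length. In the order of their mean over both libraries, Hmgb1 was followed by Txnip, Pycard, Nek7, Casp8, Gsdmd, Gsdme, Aim2 and Casp1. The counting intervals of Gsdme and Aim2 overlapped in the Usp18+/Δ-labelled library, and those of the other neighbours in this order did not overlap in either library.

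**Figure D1:**
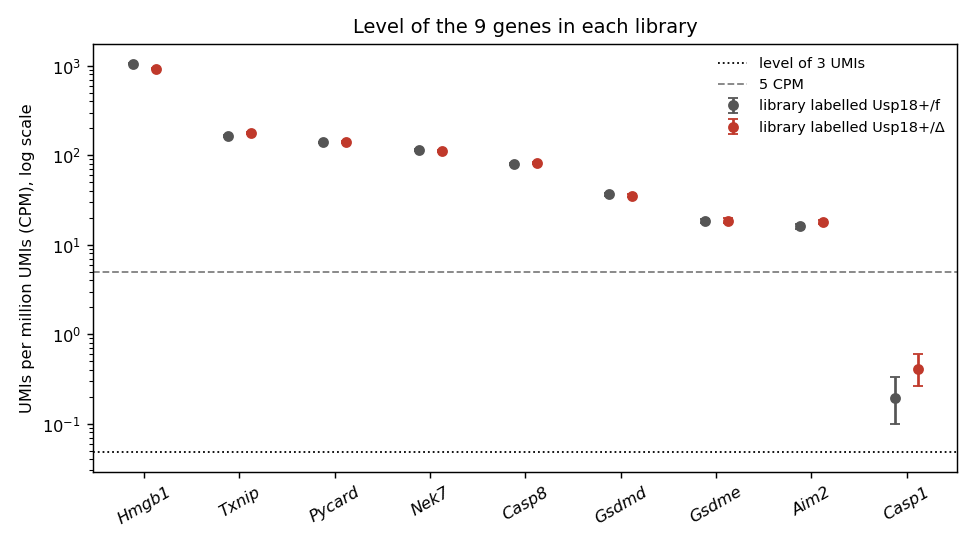
CPM (log axis) of each gene in the Usp18+/f- (grey) and Usp18+/Δ-labelled (red) libraries, with exact Poisson 95% intervals, the level of 3 UMIs (dotted) and the 5 CPM minimum for fold comparisons (dashed). Casp1, at 0.192 and 0.407 CPM, lies far below the other 8 genes, whose points lie close together between libraries.

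A gene was called past the fold between libraries when its mean reached 5 CPM and its log2 ratio was at least 0.322 in size. Of the 8 genes at that mean, 0 were past it in either direction, against 4.47% of all 8882 genes tested (3.39% higher and 1.08% lower in the Usp18+/Δ-labelled library). The median log2 ratio of the 8 genes was 0.019, beside 0.0084 for all genes tested. For contrast, 29 of 30 tested genes of the ISG list were higher, with a median of 1.11. The 9 genes are not part of that list.

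Over all kept cells, both gasdermins differed by less than their counting error. Gsdmd, the executioner of the canonical pathway (chr15:75862327-75867408, plus strand), was at 36.5 CPM (35.0 to 38.0) in the Usp18+/f-labelled library and 35.3 CPM (33.8 to 36.8) in the Usp18+/Δ-labelled library, a log2 ratio of -0.049 (-0.13 to 0.036). Gsdme (chr6:50188888-50263862, minus strand) was at 18.3 CPM (17.3 to 19.4) and 18.6 CPM (17.6 to 19.7), a log2 ratio of 0.022 (-0.096 to 0.14). At an equal depth of 3000 UMIs per cell, 10.3% and 10.6% of cells held a Gsdmd UMI, and 5.35% and 5.64% held a Gsdme UMI. Among cells with at most 5% mitochondrial UMIs the log2 ratios were 0.19 for Gsdmd and 0.11 for Gsdme, within the fold.

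Casp1, the protease at the centre of the canonical pathway (chr9:5298517-5307265, plus strand), was the gene closest to absence. It had 12 UMIs in the Usp18+/f-labelled library (0.192 CPM, 0.0990 to 0.335) and 26 UMIs in the Usp18+/Δ-labelled library (0.407 CPM, 0.266 to 0.597), in 12 and 25 cells. The log2 ratio was 1.09 with an interval of 0.050 to 2.21, and it rests on so few counts that its size is poorly known. Of these cells, 0 of 12 and 3 of 25 carried a UMI of the neutrophil, macrophage, lymphoid, dendritic or platelet markers, 0 and 0 carried at least 3 macrophage marker UMIs, and 8 and 16 carried a Kit UMI. Across all kept cells, 1.05% and 3.25% carried such a marker UMI. Because free RNA in droplets also gives single UMIs, these counts are not a measure of how many cells express the gene.

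Casp8, the death receptor caspase (chr1:58795374-58847503, plus strand), was at 80.5 CPM (78.3 to 82.8) and 82.7 CPM (80.5 to 85.0). Its log2 ratio was 0.039 (-0.017 to 0.095). Casp8 was far above Casp1 in each library, and 21.5% and 22.7% of cells held a Casp8 UMI at 3000 UMIs.

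The sensor, adaptor and Nek7 were also within the fold. Aim2, the DNA sensor (chr1:173350879-173466040, plus strand), was at 16.2 CPM (15.2 to 17.2) and 17.95 CPM (16.9 to 19.0), a log2 ratio of 0.15 (0.029 to 0.28). Pycard (chr7:127989708-127993867, minus strand) was at 139 CPM (136 to 142) and 141 CPM (138 to 144), a log2 ratio of 0.017 (-0.026 to 0.060). Nek7 (chr1:138482875-138620141, minus strand) was at 115 CPM (113 to 118) and 113 CPM (110 to 115), a log2 ratio of -0.030 (-0.077 to 0.017). Of these 3 genes, Aim2 alone had an interval that leaves out 0, and that interval lies within the fold.

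Txnip and Hmgb1 differed between libraries beyond counting error and within the fold. Txnip (chr3:96557957-96561883, plus strand) was at 164 CPM (160 to 167) and 177 CPM (174 to 181), a log2 ratio of 0.12 (0.077 to 0.15). Hmgb1 (chr5:149046702-149184489, minus strand) was at 1055 CPM (1047 to 1064) and 929 CPM (922 to 937), a log2 ratio of -0.18 (-0.20 to -0.17). The counts of Txnip and Hmgb1 spread over cells more widely than counting predicts, so their intervals are too narrow. At 3000 UMIs the variance over the mean was 1.62 and 2.02 for Txnip and 1.32 and 1.36 for Hmgb1. It was between 0.987 and 1.05 for the other 7 genes. This spread was not computed at the full depth used for the intervals, so those of the other 7 genes may also be too narrow.

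The Txnip value depended on which cells were counted. As a mean of per-cell CPM its log2 ratio was 0.318, just under the fold, and among the 1058 and 744 cells with at most 5% mitochondrial UMIs it was 0.93. In those cells Aim2 (0.66) and Hmgb1 (-0.35) also passed the fold, as did 27.6% of all genes. Of those cells with at least 3000 UMIs, 1.02% in the Usp18+/f-labelled library and 25.3% in the Usp18+/Δ-labelled library were interferon-high by the definition given below, and 23.4% and 52.8% fell in the G1 range described below. Of all kept cells, 313 and 61 had under 2% mitochondrial UMIs, with medians of 1068 and 1236 UMIs. The parts of these differences in the ratios were not tested.

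In the wider pathway, 6 genes were past the fold. Of 77 listed genes of pyroptosis and neighbouring death pathways, 68 had a UMI, 43 reached 5 CPM, 4 were higher and 2 lower past the fold, and 37 lay within it, with a median of 0.012. Over all genes tested, 3.39% were higher and 1.08% lower. The 9 genes without a UMI in either library were the gasdermins Gsdma3, Gsdmc, Gsdmc2 and Gsdmc3, the caspase Casp14, the sensors Nlrp1a, Nlrp1b and Nlrp3, and the cytokine Il33. For them a count of 0, taken to allow up to 3 UMIs per library, allows up to 0.0479 and 0.0470 CPM. Nek7 and Txnip were therefore measured in cells in which Nlrp3 mRNA was not detectable at this depth.

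The 4 higher genes were Naip5 (log2 ratio 0.62, 0.42 to 0.82) and Naip6 (0.43, 0.21 to 0.65), which sense bacterial flagellin, the guanylate-binding protein gene Gbp7 (0.59, 0.53 to 0.65) and Mlkl (0.48, 0.33 to 0.63), the pore-forming protein of necroptosis. Naip5 and Naip6 are close copies, between which reads can be split. Naip6 was at 4.65 and 6.25 CPM and reached the 5 CPM minimum only through the Usp18+/Δ-labelled library. The 2 lower genes were Serpinb1a (-0.51, -0.57 to -0.44), an inhibitor of inflammatory proteases, and Hmgb2 (-0.34, -0.35 to -0.33), the paralog of Hmgb1. The 4607 and 3307 UMIs of Serpinb1a lay in 853 and 1023 cells, 12.4% and 13.8% of the kept cells, so its interval is too narrow. As a mean of per-cell CPM, Serpinb1a stood at -0.12. Among cells with at most 5% mitochondrial UMIs, Mlkl (0.22) and Naip6 (-0.029) were within the fold and Serpinb1a turned to 1.21.

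Partners of the 9 genes were scarce or level. Casp4, the caspase of the non-canonical pathway, had 69 and 166 UMIs, a log2 ratio of 1.24 (0.83 to 1.67) under the 5 CPM minimum. The pathway's cytokines Il1b and Il18 had 14 and 15 UMIs and 27 and 46 UMIs. Ninj1, which mediates the final membrane rupture, had a ratio of -0.0058 (-0.12 to 0.11). Plk2, a kinase followed by the study, had 0 and 10 UMIs and thus stood at 0.157 CPM in the Usp18+/Δ-labelled library.

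**Figure D2:**
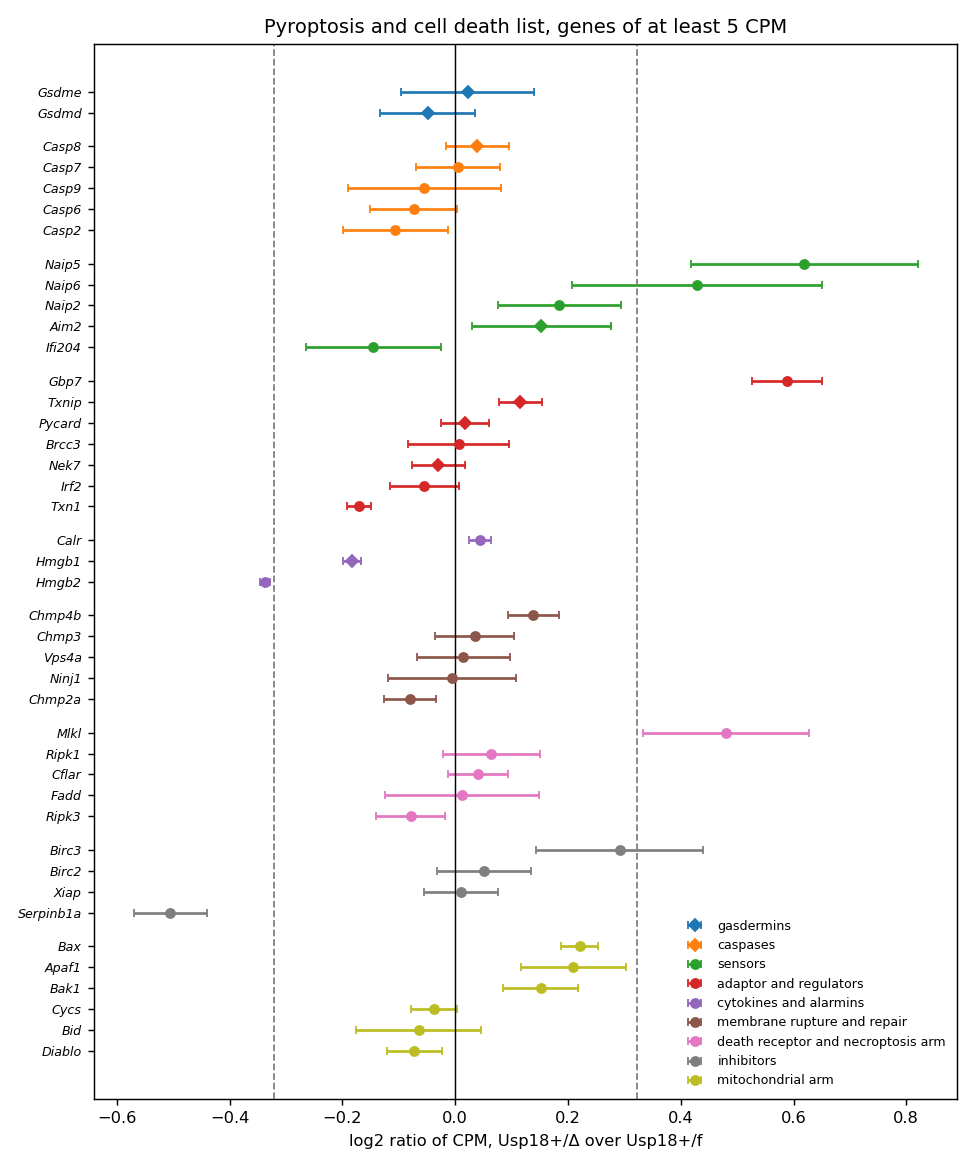
Log2 ratio of CPM, Usp18+/Δ over Usp18+/f, for listed genes of at least 5 CPM, with exact 95% counting intervals, coloured by role, diamonds for the 8 studied genes and dashed lines at the fold of 0.322 on the log2 scale. The diamonds lie between the dashed lines, and Naip5, Gbp7, Mlkl, Naip6, Serpinb1a and Hmgb2 lie outside them.

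Interferon-high cells were then compared with the other cells of the same library. Each cell of at least 3000 UMIs was thinned to that depth, and cells with more than 10 UMIs of the ISG list, the 99th percentile of the Usp18+/f-labelled library, were called interferon-high. There were 63 of 6428 such cells (0.980%, 0.754 to 1.252%) in the Usp18+/f-labelled library and 873 of 7053 (12.4%, 11.6 to 13.2%) in the Usp18+/Δ-labelled library. This is a range of a score, and 153 and 1099 cells lay within 2 UMIs of the threshold. Interferon-high cells were shallower, with medians of 6307 and 6605 UMIs beside 8997 and 8620 UMIs, and 71.4% and 67.0% of them fell in the G1 range beside 31.6% and 32.9% of the other cells. All 4 haemoglobin genes of the erythroid list were detected, and their sum was 22995 and 11228 CPM in interferon-high cells beside 3689 and 3069 CPM in the others. Of the 5 macrophage markers, 5 were at 0 in the interferon-high cells of the Usp18+/f-labelled library, and their sum was 12.3 CPM beside 3.84 CPM in the Usp18+/Δ-labelled library.

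Txnip was the gene that rose past 1.5-fold in interferon-high cells of both libraries. It was at 286 CPM (241 to 338) in interferon-high cells and 162 CPM (159 to 165) in other cells of the Usp18+/f-labelled library, a log2 ratio of 0.82 (0.57 to 1.06). In the Usp18+/Δ-labelled library it was at 332 CPM (318 to 347) and 152 CPM (149 to 155), a log2 ratio of 1.13 (1.06 to 1.20). Without the 5% of cells highest in haemoglobin the ratio in the Usp18+/f-labelled library was 0.41, under the fold, and 38 interferon-high cells were left. Without them Txnip stayed past the fold in the Usp18+/Δ-labelled library, at 1.07.

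In the Usp18+/f-labelled library, 2 of 6 genes with enough counts were higher past 1.5-fold, Casp8 and Txnip, and 0 were lower, against 14.6% of 5885 genes in either direction (5.39% higher and 9.21% lower). In the Usp18+/Δ-labelled library, 1 of 8 was higher, Txnip, and 0 were lower, against 10.1% of 8875 genes (5.04% higher and 5.1% lower). The medians over the tested genes were 0.39 and 0.37, beside -0.043 and -0.013 for all genes tested.

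Casp8 was at 140 CPM (109 to 177) in interferon-high and 79.6 CPM (77.4 to 81.9) in other cells of the Usp18+/f-labelled library, a log2 ratio of 0.81 (0.45 to 1.16) from 69 UMIs in the smaller set. In the Usp18+/Δ-labelled library it was at 104 CPM (96.7 to 113) and 79.7 CPM (77.4 to 82.0), a ratio of 0.39 (0.27 to 0.51). Casp8 was therefore above the other cells beyond counting error in both libraries, but past the fold in 1. In G1 cells alone the ratio in the Usp18+/f-labelled library was 0.51 (-0.014 to 0.998), under the fold.

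The gasdermins had positive ratios over all cells of each library, under the fold. Gsdmd was at 52.8 CPM (34.5 to 77.3) and 36.4 CPM (34.9 to 38.0) in the Usp18+/f-labelled library, a log2 ratio of 0.53 (-0.083 to 1.09), and at 45.9 CPM (40.7 to 51.4) and 33.9 CPM (32.4 to 35.5) in the Usp18+/Δ-labelled library, a ratio of 0.43 (0.25 to 0.61). Gsdme had ratios of 0.56 (-0.35 to 1.34) from 13 UMIs and 0.45 (0.19 to 0.69) from 153 UMIs. Aim2 had ratios of 0.61 (-0.35 to 1.42) from 12 UMIs and 0.35 (0.083 to 0.61) from 138 UMIs. Gsdme and Aim2 were also higher in G1 than in G2M cells, as given below, and the part of phase in their ratios was not tested. With cells thinned to the deeper of the alternative depths, the Aim2 ratio in the Usp18+/f-labelled library turned to -0.67. In G1 cells of the Usp18+/f-labelled library the Gsdmd ratio was -0.062 (-1.13 to 0.83) from 10 UMIs, while it passed 1.5-fold without the haemoglobin-high cells (0.76) and with interferon-high cells chosen by ISG share without thinning (0.63). Among cells with at most 5% mitochondrial UMIs the Gsdmd ratio in the Usp18+/Δ-labelled library was 0.070. The Gsdme and Aim2 counts in the Usp18+/f-labelled library were too low to enter the background.

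Pycard and Nek7 were nearly level with interferon response. Pycard had log2 ratios of 0.24 (-0.089 to 0.56) and 0.033 (-0.067 to 0.13), and Nek7 had ratios of -0.096 (-0.51 to 0.29) and 0.16 (0.053 to 0.27). Casp1 had 0 UMIs in the 63 interferon-high cells of the Usp18+/f-labelled library and 4 UMIs in the 873 of the other, beside 22 UMIs in its other cells, a log2 ratio of 0.70 (-1.30 to 2.26). A difference in Casp1 was not detectable at this depth.

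Hmgb1 was lower in interferon-high cells, within 1.5-fold. It was at 812 CPM (734 to 896) beside 1056 CPM (1048 to 1065) in the Usp18+/f-labelled library, a log2 ratio of -0.38 (-0.53 to -0.24), and at 673 CPM (653 to 693) beside 962 CPM (954 to 970) in the Usp18+/Δ-labelled library, a ratio of -0.52 (-0.56 to -0.47). In G1 cells of the Usp18+/Δ-labelled library the ratio was -0.69 (-0.76 to -0.61), past 1.5-fold. Without the 5% of cells highest in haemoglobin the Hmgb1 ratios were -0.22 and -0.45, and from thinned UMIs alone the ratio in the Usp18+/Δ-labelled library was -0.63, past 1.5-fold.

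Across 5 ranges of ISG UMIs per 3000 UMIs (0, 1 to 2, 3 to 5, 6 to 10 and over 10), the Txnip level was 131, 144, 176, 250 and 286 CPM in the Usp18+/f-labelled library and 105, 125, 141, 192 and 332 CPM in the Usp18+/Δ-labelled library. Txnip was thus higher at each step in both libraries, and in each of the 4 ranges up to 10 UMIs it was lower in the Usp18+/Δ-labelled library, by log2 ratios of -0.32, -0.20, -0.32 and -0.38, although its level over all cells was higher there. The ranges hold different shares of the cells: 9.30% and 2.58% of cells had 0 ISG UMIs, and 8.06% and 28.3% had 6 to 10. Over the same ranges Hmgb1 went from 1118 to 812 CPM and from 1092 to 673 CPM, and Casp8 from 77.4 to 140 CPM and from 64.2 to 104 CPM. Pycard stayed between 138 and 164 CPM and between 133 and 144 CPM.

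**Figure D3:**
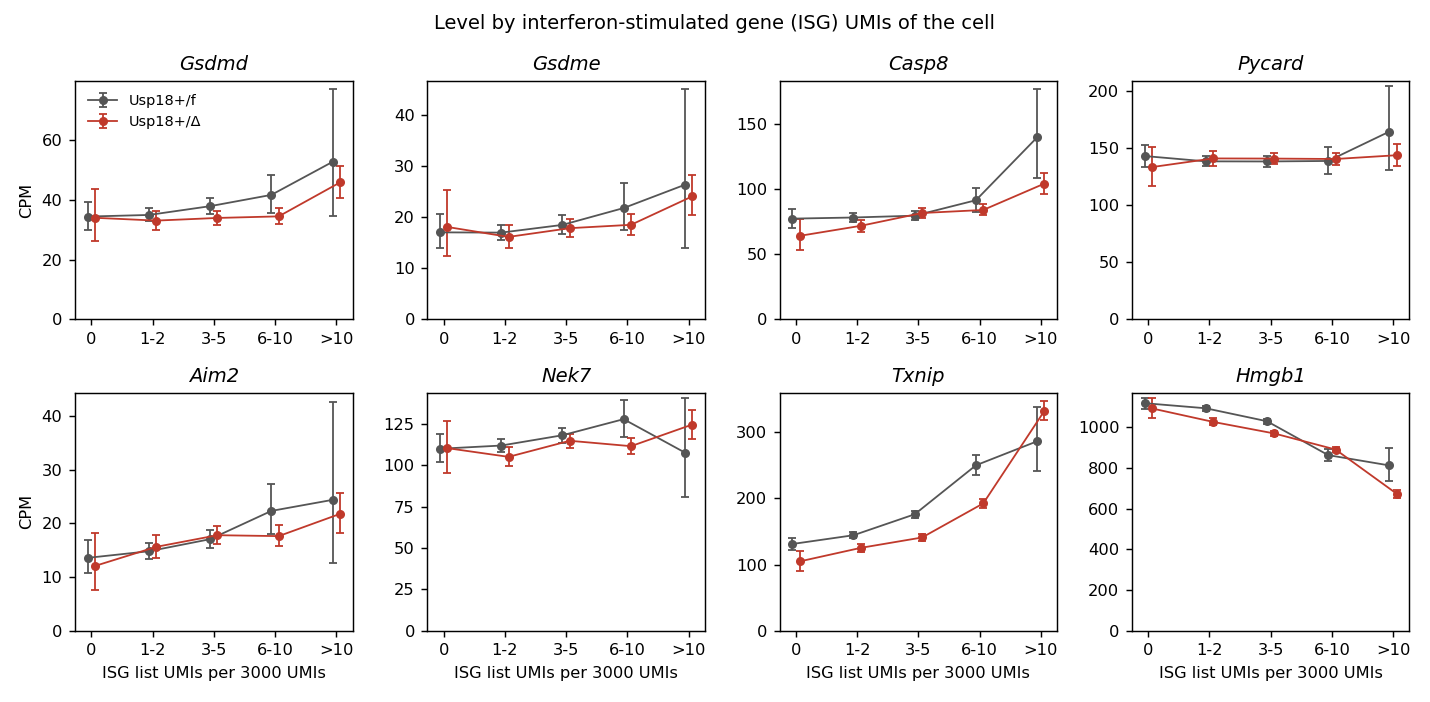
CPM of 8 genes (Casp1 left out) by the number of ISG list UMIs per 3000 UMIs of the cell in the Usp18+/f- (grey) and Usp18+/Δ-labelled (red) libraries, with exact Poisson 95% intervals and axes from 0. Txnip goes from 131 to 286 CPM and from 105 to 332 CPM, Hmgb1 goes down, and Pycard is nearly level.

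Further listed genes of the pathway passed 1.5-fold in interferon-high cells and are named here after their values were seen. The cells were chosen by the ISG list, so genes that follow that response are higher by the choice of cells. Listed genes outside the ISG list were not screened for this, and the counts are descriptions. Of 45 tested genes in the Usp18+/Δ-labelled library, 8 were higher and 0 lower, with a median of 0.28, beside 5.04% higher and 5.1% lower over all genes outside the ISG list. They were Naip5, Txnip, Gbp2, Gbp5, Gbp7, Mlkl, Birc3 and Serpinb1a, with Gbp2 at 3.58 (3.30 to 3.87) and Serpinb1a at 2.29 (2.17 to 2.42). Gbp2 and Gbp5 stood at 3.21 and 4.30 CPM in the other cells, so they reached the 5 CPM minimum only through the interferon-high cells. Serpinb1a, lower over all cells of the Usp18+/Δ-labelled library, was at 298 and 135 CPM in the interferon-high cells of the Usp18+/f- and Usp18+/Δ-labelled libraries and at 66.4 and 27.5 CPM in the other cells. In the Usp18+/f-labelled library, 7 of 32 were higher and 3 lower, with a median of 0.041. Over all genes outside the ISG list, 5.39% were higher and 9.21% lower. The higher genes were Casp2, Casp8, Txnip, Gbp7, Ripk1, Birc2 and Serpinb1a. The lower genes were Casp6 (-0.64, -1.51 to 0.11), Chmp3 (-0.75, -1.59 to -0.028) and Bid (-1.425, -3.30 to -0.065), from 14, 15 and 4 UMIs. In the Usp18+/Δ-labelled library these 3 genes stood at 0.41, 0.28 and -0.14. Casp4 had 38 UMIs in interferon-high cells of the Usp18+/Δ-labelled library, 5.99 CPM beside 2.20 CPM in its other cells.

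Txnip and Hmgb1 differed in opposite directions between cell cycle phases. Phases here are ranges of summed S and G2M gene UMIs at 3000 UMIs, and G1, S and G2M held 32.0%, 34.6% and 33.3% of cells in the Usp18+/f-labelled library and 37.1%, 34.5% and 28.3% in the Usp18+/Δ-labelled library. They differ in depth as well, with medians of 6800, 9034 and 11937 UMIs and of 6297, 8699.5 and 11134 UMIs, and the part of depth was not tested. Txnip was at 270 CPM in G1, 145 CPM in S and 116 CPM in G2M in the Usp18+/f-labelled library, and at 328, 118 and 99.1 CPM in the Usp18+/Δ-labelled library. The G2M over G1 log2 ratio of Txnip was -1.22 (-1.29 to -1.15) and -1.73 (-1.80 to -1.66). Hmgb1 went the other way, from 806 CPM in G1 to 1028 in S and 1218 in G2M, and from 712 to 951 and 1085 CPM, with G2M over G1 ratios of 0.60 (0.57 to 0.63) and 0.61 (0.58 to 0.64).

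For the other genes, G2M over G1 log2 ratios were -0.62 and -0.39 for Aim2, -0.42 and -0.46 for Gsdme, and -0.42 and -0.38 for Casp8, each with an interval below 0. For Gsdmd they were -0.12 (-0.28 to 0.028) and -0.14 (-0.28 to 0.014), for Pycard -0.035 and -0.046, and for Nek7 -0.023 and -0.033, with intervals that include 0.

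Within phases the library ratio of Txnip took both signs. It was 0.28 (0.22 to 0.34) in G1 cells, -0.30 (-0.37 to -0.22) in S cells and -0.22 (-0.30 to -0.15) in G2M cells. Among cells that were not interferon-high the values were 0.099 (0.035 to 0.16), -0.31 (-0.39 to -0.23) and -0.25 (-0.33 to -0.17). For Hmgb1 the ratio kept 1 sign, at -0.18 (-0.21 to -0.14) in G1, -0.11 (-0.14 to -0.085) in S and -0.17 (-0.19 to -0.14) in G2M. Casp8, Pycard and Nek7 had ratios between -0.048 and 0.046 in the 3 phases, with intervals that include 0.

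The interferon contrast of Txnip in the Usp18+/Δ-labelled library was 0.80 (0.72 to 0.88) in G1, 0.18 (-0.041 to 0.40) in S and 0.31 (0.075 to 0.53) in G2M, so the ratio over all cells was above each of its phase values. In the Usp18+/f-labelled library it was 0.63 (0.34 to 0.90) in G1, and S and G2M held 13 and 16 UMIs. Gsdmd showed ratios of 0.37, 0.50 and 0.37 in the 3 phases of the Usp18+/Δ-labelled library, and Casp8 of 0.40, 0.42 and 0.12.

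**Figure D4:**
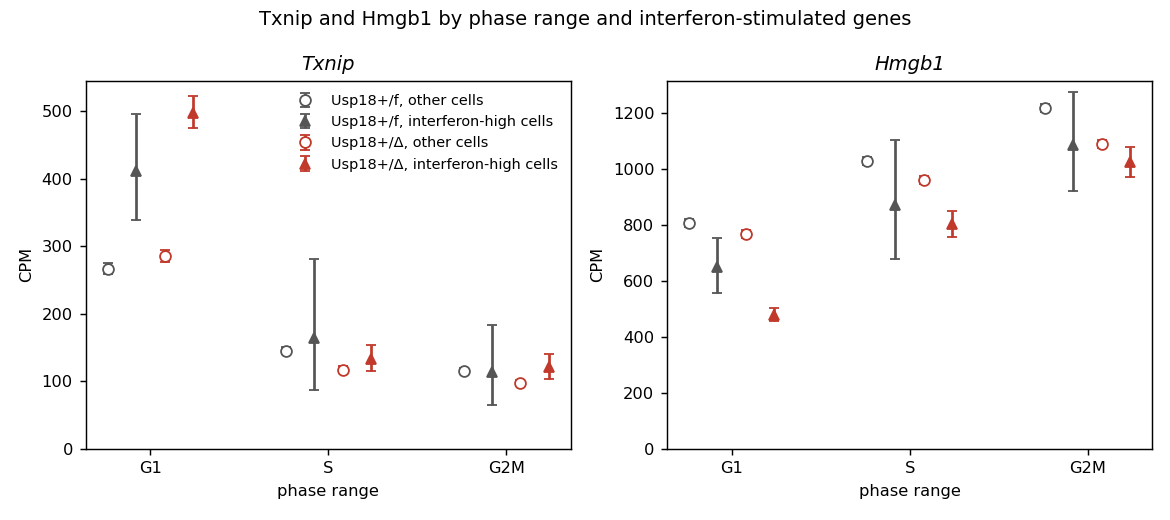
CPM of Txnip and Hmgb1 in the G1, S and G2M ranges for interferon-high cells (filled triangles) and other cells (open circles) of the Usp18+/f- (grey) and Usp18+/Δ-labelled (red) libraries, with exact Poisson 95% intervals. The highest Txnip value, 498 CPM, is in interferon-high G1 cells of the Usp18+/Δ-labelled library, where Hmgb1 has its lowest value, 478 CPM.

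Txnip and Aim2 were also higher in cells rich in mast cell protease or haemoglobin transcripts. In the top 5% of cells for Mcpt1 and Mcpt2 (6.27% and 2.75% of cells of the Usp18+/f- and Usp18+/Δ-labelled libraries) the log2 ratios over the rest were 0.97 (0.63 to 1.29) and 1.05 (0.55 to 1.51) for Aim2, and 0.93 and 1.40 for Txnip. Gsdme had 0.40 (0.020 to 0.76) and 0.94 (0.44 to 1.41), and Hmgb1 had -0.39 and -0.64. In the top 5% for haemoglobin, Txnip had 0.92 and 1.32 and Aim2 had 0.77 and 0.57. Of the Mcpt-high cells 62.5% and 77.8%, and of the haemoglobin-high cells 64.8% and 77.2%, fell in the G1 range, beside 32.0% and 37.1% of all cells of at least 3000 UMIs, and the part of phase was not tested.

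Most pairs of these genes were seen together in single cells about as often as their separate shares give. At 3000 UMIs, Gsdmd and Pycard were found together in 227 cells against 227 from the product of their shares, and in 263 against 257. Pycard and Aim2 were together in 113 against 113 and in 132 against 133. Gsdmd and Casp8 were together in 165 cells against 143 (2.57%, 2.19 to 2.98%, against 2.22%) and in 197 against 170 (2.79%, 2.42 to 3.20%, against 2.41%), and Aim2 and Casp8 in 81 against 71.3 and in 95 against 87.8. Over all UMIs of the kept cells, 201 and 195 cells held Gsdmd, Pycard and Aim2 together (159 and 159 from the product, which leaves out that deeper cells hold more genes), and 0 of 6886 and 0 of 7406 cells held these 3 with Casp1, where the product of shares gives 0.277 and 0.537 cells. The median cell held 4 of the 9 genes and the highest 8, and 33 and 17 cells held 0.

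Likeness was computed for the 5 of the 9 genes that reached 50 CPM. Across 18 sets of cells (library by phase by ISG range, log2(CPM + 1), 3245 genes of at least 50 CPM) the most alike were Plgrkt (Pearson r = 0.99), Rsrp1 (0.98) and Pnrc1 (0.98) for Txnip, whose level ran from 90.3 to 407 CPM over the sets. For Hmgb1 they were H2afz (0.98), Banf1 (0.97) and Timm13 (0.97). For Nek7 they were Crebbp (0.92), Atf7ip (0.90) and Atp2b4 (0.87), for Casp8 AC149090.1 (0.88), D17Wsu92e (0.88) and Junb (0.86), and for Pycard Zfp280d (0.83), Trnau1ap (0.80) and Arglu1 (0.77). The sets share libraries and differ in depth, so these values are descriptions of likeness.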

How the data were processed

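Single-cell RNA sequencing libraries (10x Genomics V3, 3′ UMIs) of 2 groups were analysed. The deposited matrices hold raw UMI counts per gene and barcode made by the authors with Cell Ranger 3.0.2 per the file headers, on mm10. Whether counting used strand is not given in the sources used here. Gsdme, Aim2, Pycard and Txnip overlap a gene on the other strand, and Casp8 overlaps a gene model on the same strand. Nek7 and Hmgb1 overlap gene models on both strands (GENCODE vM21, 30934 of 31053 identifiers matched).

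Kept barcodes had 500 or more genes and no more than 10% mitochondrial UMIs. Doublets were not called. UMIs were summed per library or range of cells and scaled to CPM of their total. Poisson intervals for CPM, Clopper-Pearson intervals for shares and conditional intervals for log2 ratios are exact at 95% and cover counting error only. Fold comparisons used genes of at least 5 CPM, and interferon-high comparisons also at least 10 expected UMIs in the smaller set, outside the 39 ISGs found of 40 listed. Named were the 9 genes, listed genes past the fold (0.322 on the log2 scale between libraries, 1.5-fold for interferon-high cells) or without UMIs, chosen partners, and Usp18 and Isg15. Alternatives changed barcode filters, scaling, minimum levels, folds and the choice of interferon-high cells. The members, lists and motifs were chosen with earlier results of these data known. One listed gene is counted in the list but not reported here. The interval and thinning code was tested on simulated data. Python 3.11.15 with numpy 2.4.6 and scipy 1.17.1 was used.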

Additional observations from a re-analysis of the deposited data

Results flagged for a closer look

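Txnip was set apart because its library ratio took opposite signs in parts of the same population: the log2 ratio Usp18+/Δ over Usp18+/f was 0.28 in G1 cells, -0.30 in S cells and -0.22 in G2M cells. With 1 library per group the difference between phases was not tested.

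Barcodes above 10% mitochondrial UMIs (290 and 404), which were left out of the comparisons, also held Txnip. It was at 197 CPM in those of the Usp18+/f-labelled library and 268 CPM in those of the Usp18+/Δ-labelled library, a log2 ratio of 0.44 (0.19 to 0.71). Macrophage markers had 2 UMIs (2.03 CPM) and 42 UMIs (32.6 CPM) in the same barcodes, and their part was not tested.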

How the results depend on the processing

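Most values depended little on the processing, and the restriction to cells with at most 5% mitochondrial UMIs moved most. Under it 3 of the 9 genes passed the fold between libraries (Aim2 and Txnip higher, Hmgb1 lower), 12 listed genes were higher and 4 lower, Naip6 turned to -0.029 and Serpinb1a to 1.21, and in interferon-high cells 0 genes were higher in the Usp18+/f-labelled library, while 3 were higher and 1 lower in the Usp18+/Δ-labelled library. The cause was not tested. Only 7 cells of the Usp18+/f-labelled library were interferon-high there. A mean of per-cell CPM left 1 listed gene lower, and minimum means of 1 and 20 CPM gave 9 and 1 listed genes higher, with 6.48% and 1.77% of all genes higher. For the interferon contrast in the Usp18+/f-labelled library, 1 gene was higher at the 95th percentile and in G1 cells alone, an alternative chosen after seeing the data, and 1 was lower at the smaller fold used between libraries. In the Usp18+/Δ-labelled library, 5 were higher and 1 lower at that fold, and 1 was lower with thinned UMIs and in G1 cells alone. For the alternatives of the interferon contrast the shares of all genes past the fold were not computed, so these counts are descriptions only. In every other alternative run, 0 of the studied genes that reached the minimum mean passed the fold between libraries, and Casp1 did not reach it. Scaling by median of ratios or without mitochondrial, ribosomal protein and haemoglobin genes moved the median of all genes to -0.0064 and 0.018. Also added after seeing the data were the fits without haemoglobin-high cells, shared barcodes or cells with macrophage or neutrophil markers, and phases at other depths, where the Txnip library ratio in G1 ranged from 0.16 to 0.37 (0.83 at most 5% mitochondrial UMIs). No paired analysis was possible because the design has 1 library per condition. For Casp1, 12 and 26 UMIs are too few to size a difference.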
